A study of Mus musculus with 3 samples.

Results

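Genes for 10 enzymes and helper proteins that make or break down prostaglandins, thromboxane and leukotrienes were followed on 3 Affymetrix mouse expression arrays of sorted spleen cells. The members were all probe sets (the groups of array probes that report 1 transcript) whose platform annotation gave one of the symbols Ptgs1, Ptgs2, Ptges, Hpgds, Ptgis, Tbxas1, Hpgd, Alox5, Alox5ap or Ltc4s alone. This gave 13 of the 45101 probe sets, for 9 of the 10 genes. No probe set carried Ptgs1 alone in that annotation, so this gene has no level here, and only its promoter sequence was scanned. One array held monocytes sorted as Spic-negative by the reporter, one held monocytes sorted as Spic-positive, and one held red pulp macrophages, the resident cells of the spleen that clear aged red blood cells. All came from adult Spic(igfp/+) mice, which carry a green fluorescent reporter in 1 Spic allele, so every group shared that allele and no other genotype is analysed here. Per the design text, cells bearing CD4, CD8 or B220 were removed on magnetic beads before the monocyte sort, CD11b and Ly6C defined the monocytes, which the reporter then split, and strong F4/80 and reporter signal defined the macrophages. The sources used here give neither the number of mice behind an array nor whether mice were pooled. With 1 array per population there is no error between animals and no test, and each difference below is a log2 difference between 2 single arrays (log2 1 is 2-fold). Where 3 values follow each other, they are levels in the order Spic-negative monocytes, Spic-positive monocytes, red pulp macrophages.

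Prostaglandins and leukotrienes are lipid signals made on demand from arachidonic acid, which phospholipases release from membranes. Cyclooxygenases (Ptgs1 and Ptgs2) turn it into prostaglandin H, from which terminal synthases make prostaglandin E (Ptges), prostaglandin D (Hpgds), prostacyclin (Ptgis) or thromboxane (Tbxas1), and Hpgd inactivates prostaglandins. Lipoxygenase Alox5, with its activating protein Alox5ap, makes leukotriene A, which Ltc4s joins to glutathione. Macrophages are a well known source of these mediators, which act on vessels, on platelets and on other immune cells.

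The labels were checked against markers first. Spic measured log2 5.66, 9.22 and 12.23, so it was above the floor defined below on the Spic-negative array too. All 8 red pulp macrophage markers were at log2 11.48 or more on the macrophage array, and all 6 measured classical monocyte markers were at 7.38 or more on both monocyte arrays. Neither set was confined to those arrays. Medians of the macrophage set were 5.46, 9.07 and 12.89, with 5, 7 and 8 of 8 above the floor. Medians of the monocyte set were 12.68, 12.09 and 7.29, with 6, 6 and 5 of 6 above it. Other features of the arrays moved with the populations. Xist, transcribed from the inactive X chromosome, measured 4.63 and 4.70 on the monocyte arrays and 11.95 on the macrophage array. The Y-linked gene Eif2s3y measured 10.10, 9.56 and 3.31. That is the pattern of male cells on the monocyte arrays and of female cells on the macrophage array. In the macrophage comparisons, sex and population therefore cannot be told apart. Erythroid markers above the floor numbered 0, 1 and 4 of 5. Gapdh control probe sets, whose excess of 3' over 5' signal is a sign of RNA shortening, gave an excess of log2 0.48, 2.25 and 1.61, while those of beta-actin gave another order, 0.74, 0.57 and 1.13. The 18 hybridization controls had medians of 10.23, 12.41 and 10.16. The part of these features in the differences below was not tested. The 9 measured members lie on autosomes.

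Promoter sequences are shown for 4 members, because Hpgds, Tbxas1 and Hpgd were the members with a sequence entry that were higher in macrophages and Ptgs2 was the one that was lower. Each line gives the 250 bases before the transcription start from RefSeq (GRCm38.p6), 5' to 3' on the strand of the gene, at chr6:65144731-65144980 (minus strand) for Hpgds, chr6:38918736-38918985 (plus) for Tbxas1, chr8:56294302-56294551 (plus) for Hpgd and chr1:150099781-150100030 (plus) for Ptgs2. Capitals mark GAGGAA, or TTCCTC where it lies on the other strand, the core of the box bound by PU.1 and Spi-C.
Hpgds: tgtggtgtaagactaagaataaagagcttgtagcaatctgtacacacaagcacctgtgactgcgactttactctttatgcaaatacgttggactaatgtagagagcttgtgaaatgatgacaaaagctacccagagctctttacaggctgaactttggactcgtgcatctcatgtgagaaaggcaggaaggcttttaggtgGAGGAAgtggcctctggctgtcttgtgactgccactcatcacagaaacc
Tbxas1: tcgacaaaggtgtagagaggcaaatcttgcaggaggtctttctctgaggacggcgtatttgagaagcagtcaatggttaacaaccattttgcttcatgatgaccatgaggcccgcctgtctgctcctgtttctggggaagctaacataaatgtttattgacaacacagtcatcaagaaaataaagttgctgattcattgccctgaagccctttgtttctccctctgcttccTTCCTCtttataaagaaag
Hpgd: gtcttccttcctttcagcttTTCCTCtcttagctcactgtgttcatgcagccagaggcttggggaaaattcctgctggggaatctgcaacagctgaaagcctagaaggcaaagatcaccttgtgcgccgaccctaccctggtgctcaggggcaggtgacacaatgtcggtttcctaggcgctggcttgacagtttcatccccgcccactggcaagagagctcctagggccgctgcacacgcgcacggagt
Ptgs2: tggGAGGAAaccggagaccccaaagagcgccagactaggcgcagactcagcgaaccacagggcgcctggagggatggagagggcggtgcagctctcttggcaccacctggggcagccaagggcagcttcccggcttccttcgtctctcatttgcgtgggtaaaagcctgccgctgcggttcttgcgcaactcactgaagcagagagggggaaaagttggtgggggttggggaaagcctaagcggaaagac
The match ended 44 bases before the start in Hpgds, 14 in Tbxas1, 225 in Hpgd and 242 in Ptgs2. Of the 8 members with a sequence entry, 7 held GAGGAA on either strand, and Ltc4s held none. Among the 7 were Ptges, Alox5 and also Ptgs1, which has no level here. Ptgis and Alox5ap had no sequence entry. Of all 32851 promoters of the same length, 23.3% held it. The antioxidant response core TGACNNNGC was found in 0 of the 8 and in 10.2% of all promoters. GAGGAA was held by members that were higher, lower and under 2-fold in macrophages, and by Ptges, which lay under the floor, so the match did not separate them.

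Of the 8 members compared, 4 were at least 2-fold higher and 2 lower in macrophages than in Spic-negative monocytes, beside 19.6% and 11.3% of all genes. Hpgds and Ptgis were compared only through their macrophage level. Between the monocyte arrays 0 of 8 differed by 2-fold, beside 3.49% of all genes higher and 3.06% lower. Red pulp macrophages had higher Ptgis (log2 5.83 above Spic-negative monocytes), Hpgds (4.36), Tbxas1 (3.06) and Hpgd (1.5), and lower Ptgs2 (-2.45) and Alox5ap (-2.11). Alox5 (-0.94) and Ltc4s (0.54) differed by less than 2-fold. In these bulk samples, fewer cells of a type and less RNA per cell cannot be told apart.

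**Figure D1:**
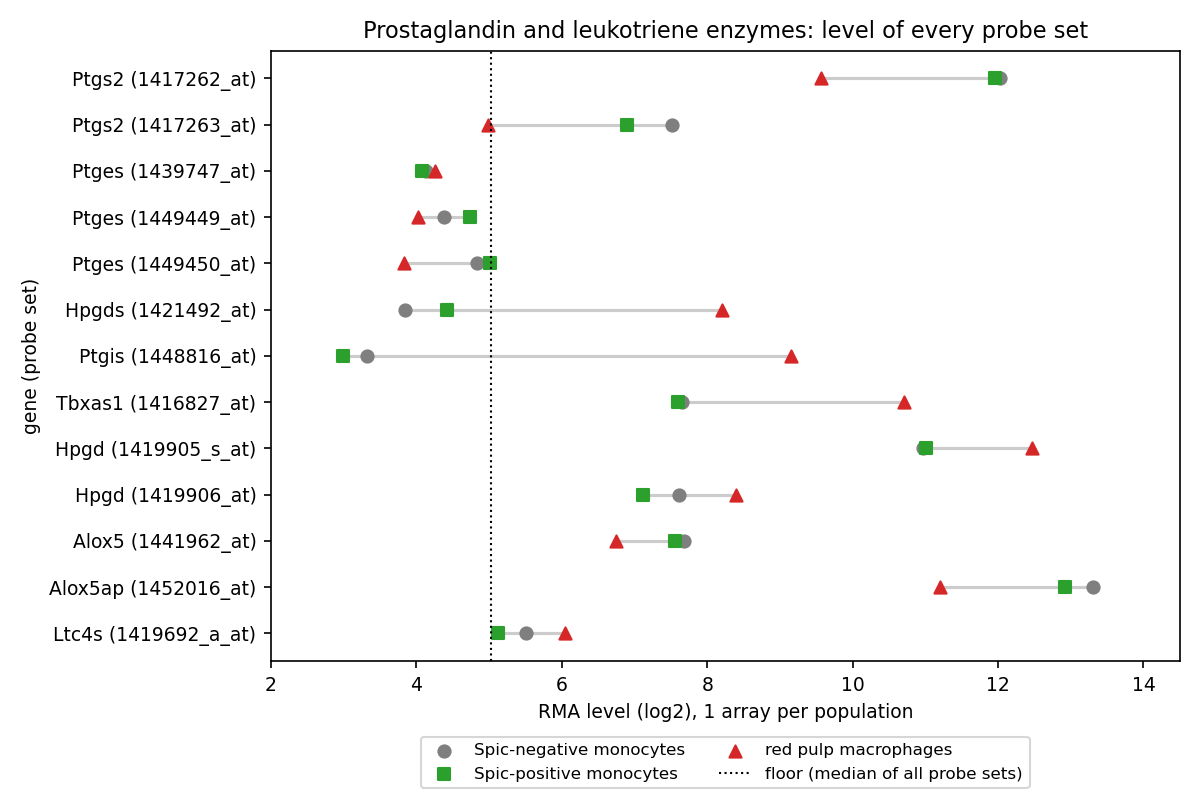
Level (log2) of each of the 13 probe sets of the 9 measured genes on the 3 arrays, 1 point per array: circles are Spic-negative monocytes, squares are Spic-positive monocytes, triangles are red pulp macrophages, and the dotted line is the floor at log2 5.02. The 2 monocyte points lie within 2-fold of each other in every row, the triangles of Ptgis, Hpgds, Tbxas1 and Hpgd lie to their right, and those of Ptgs2, Alox5 and Alox5ap lie to their left.

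For counts, a gene was given its probe set with the highest mean, and genes were compared when their brightest array lay above log2 5.02, the median of all probe sets. Of the 9 measured members 8 passed, and Ptges did not. Hpgds and Ptgis passed through the macrophage array alone, so they had to be higher there. Between the monocyte arrays, 0 of 8 members were at least 2-fold higher or lower in Spic-positive monocytes, where 3.49% of all 12375 genes compared were higher and 3.06% were lower. Their median difference was -0.09, beside -0.06 for all genes. In macrophages against Spic-negative monocytes, 4 of 8 were at least 2-fold higher and 2 were lower, beside 19.6% and 11.3% of all genes, and the median was 1.02 beside 0.03. Against Spic-positive monocytes the same 4 were higher and the same 2 lower, beside 22.0% and 11.6% of all genes, with a median of 1.19 beside 0.10. Both comparisons use the macrophage array, so they are not separate evidence. Hpgds and Ptgis, which had to be higher, are in these counts and medians, so the medians do not describe the members without them. Among the rest, Tbxas1 and Hpgd were higher, Ptgs2 and Alox5ap were lower, and Alox5 and Ltc4s were under 2-fold, in both comparisons.

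**Figure D2:**
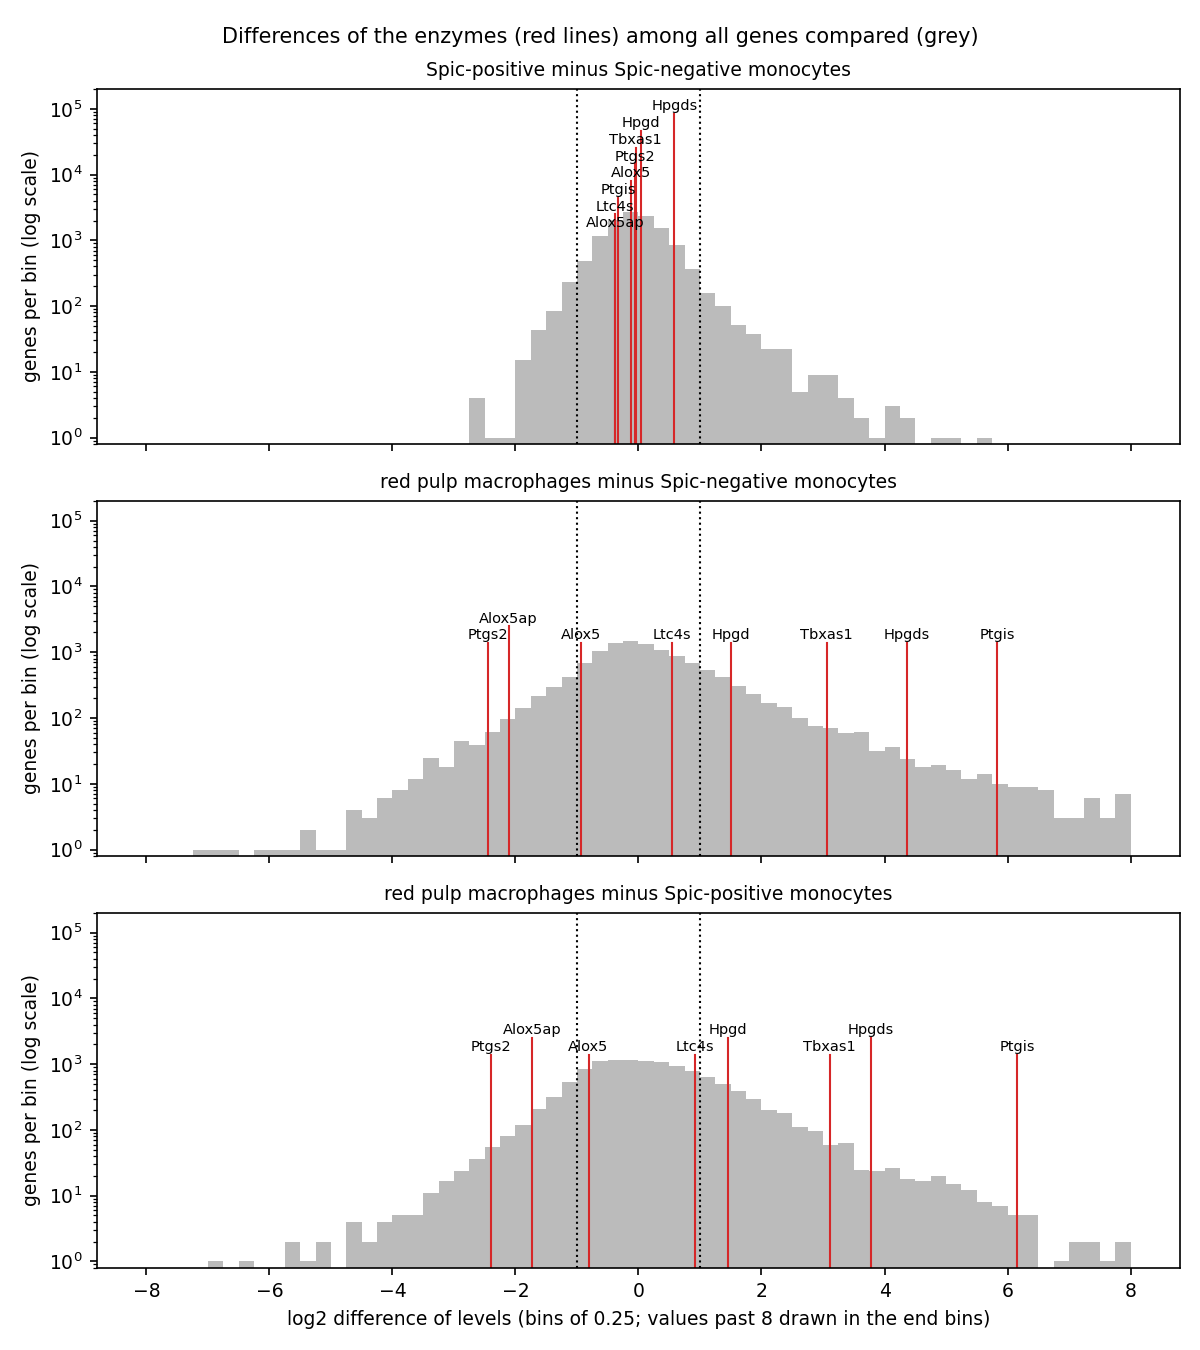
Histograms of the log2 difference of all 12375 genes compared (grey, bins of 0.25, counts on a log axis), 1 panel per comparison, with the 8 members that passed the floor as red lines and 2-fold as dotted lines. All members lie inside the dotted lines between the monocyte arrays, while Ptgis lies far out on the higher side in both macrophage panels and Ptgs2 on the lower side.

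Cyclooxygenase comes first in the prostaglandin branch. The inducible form, Ptgs2, measured log2 12.02, 11.96 and 9.57 on the brighter of 2 probe sets. The monocyte arrays differed by -0.06 and macrophages were lower, with differences of -2.45 against Spic-negative monocytes, which is 5.47-fold, and -2.39 against Spic-positive monocytes. Counted from the lowest, these differences ranked 177 and 139 of 12375. The second probe set of Ptgs2 measured 7.51, 6.89 and 4.99, so it also placed macrophages lowest, just under the floor, with differences of -2.52 and -1.90. Levels of different probe sets are not comparable.

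Prostaglandin E synthase, Ptges, stayed under the floor on all 3 arrays with all 3 of its probe sets. Its brightest probe set measured 4.84, 5.01 and 3.83, and the others lay between 4.02 and 4.74. No fold is given for it, since all values are near background.

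Hematopoietic prostaglandin D synthase, Hpgds, measured log2 3.84, 4.43 and 8.20. Only the macrophage array was above the floor. The differences were 4.36 and 3.78 against the respective monocyte arrays, and against the floor itself the macrophage level was higher by 3.18. The monocyte arrays differed by 0.58, with both values in the background range.

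Ptgis, which makes prostacyclin, an inhibitor of platelet aggregation, had the widest span of the 8 members compared. It measured 3.32, 2.99 and 9.15. Both monocyte values were in the background range, so the differences of 5.83 and 6.16 depend on that background, and the macrophage level was 4.12 above the floor. Counted from the highest, the differences ranked 54 and 14 of 12375.

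Thromboxane synthase, Tbxas1, makes the mediator that opposes prostacyclin on platelets and vessels. It measured 7.65, 7.60 and 10.71. All arrays were above the floor, the monocyte arrays differed by -0.05, and macrophages were higher by 3.06 (8.36-fold) and 3.11 (8.63-fold). So its difference, unlike those of Hpgds and Ptgis, does not rest on a value under the floor.

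Hpgd, the dehydrogenase that inactivates prostaglandins, measured 10.97, 11.01 and 12.47 on its brighter probe set. It was above the floor on every array, and macrophages were higher by 1.5 (2.83-fold) and 1.46 (2.75-fold). Its other probe set measured 7.62, 7.12 and 8.40, again highest in macrophages, with differences of 0.78 and 1.28. The name of the brighter probe set marks it as able to bind several transcripts, and on the other the difference from Spic-negative monocytes stayed under 2-fold.

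The 3 members of the leukotriene branch did not share a direction. Alox5, the lipoxygenase, measured 7.68, 7.56 and 6.74, and macrophages differed by -0.94 and -0.81, under 2-fold. Its helper Alox5ap, a membrane protein that presents arachidonic acid to Alox5, measured 13.31, 12.92 and 11.20. Macrophages were lower, with differences of -2.11 (4.32-fold) and -1.73 (3.31-fold), and with all 3 levels above the floor. Ltc4s, leukotriene C synthase, measured 5.50, 5.12 and 6.04, all a little above the floor. Macrophages differed by 0.54 and 0.92, under 2-fold, although 2 alternatives, centring each array on its median and cyclic loess, took the difference from Spic-positive monocytes past it.

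Several of these enzymes are also products of other cells of the spleen, so their markers are given beside them. A sum over markers is compared only between arrays, since probe sets differ in brightness, and is also given without its brightest marker, a choice made after seeing the data. Mast cells and basophils are known for Hpgds, Ltc4s and Alox5. Of 8 measured mast cell and basophil markers, 2, 3 and 3 were above the floor on the 3 arrays, with summed levels on the linear scale of 1112, 609 and 944, and of 133, 189.8 and 439.5 without Hdc, the histidine decarboxylase gene. Hdc measured log2 9.94, 8.71 and 8.98, and the transcription factor gene Gata2 5.51, 6.17 and 6.26. The defining genes Cpa3, Fcer1a, Ms4a2 and Cma1 were under the floor on all 3 arrays, while the basophil protease gene Mcpt8 measured 3.92, 4.003 and 8.01. Of 5 eosinophil markers, 0, 0 and 2 were above the floor, with summed levels of 59.0, 83.2 and 1156, and of 52.1, 71.6 and 535 without Ccr3. Ccr3, an eotaxin receptor, reached 9.28 and Prg2, a granule protein, 8.89 in macrophages, while Epx, Siglecf and Il5ra were under the floor on every array. The part of such cells in the Hpgds level was not tested.

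Platelets are known for Tbxas1 and Alox12. Of 7 platelet and megakaryocyte markers, 4, 5 and 5 were above the floor, with summed levels of 320.0, 404 and 5684, and of 277, 350.1 and 1342 without Clec1b. Pf4, a platelet chemokine gene, measured 4.97, 5.80 and 8.94 and Ppbp 4.38, 4.82 and 9.23, whereas Itga2b measured 6.64, 6.52 and 6.96 and Gp6 was under the floor on all 3 arrays. Clec1b, a receptor of platelets and some myeloid cells, measured 5.42, 5.76 and 12.08. The part of platelet RNA in the Tbxas1 level was not tested.

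Endothelial and stromal cells are known for Ptgis. Of 7 of their markers, 3, 4 and 5 were above the floor, with summed levels of 238, 460.0 and 4047, and of 218, 376 and 329.9 without Stab2. Stab2, a scavenger receptor of sinus endothelium, measured 4.35, 6.39 and 11.86 and Pecam1 5.28, 5.16 and 7.18. The endothelial cadherin gene Cdh5 measured 4.56, 4.65 and 5.20, the endothelial receptor gene Kdr 6.14, 7.93 and 6.54, and the stromal receptor gene Pdgfrb 5.90, 5.55 and 5.15. The collagen genes Col1a1 and Col3a1 were under the floor on all 3 arrays. The part of such cells in the Ptgis level was not tested. Neutrophils and monocytes share Alox5ap and Alox5, and 7, 7 and 6 of 7 neutrophil markers were above the floor, with summed levels of 31020, 34040 and 30920, and of 19730, 22590 and 24810 without S100a9. Single neutrophil genes went both ways, with Mmp8 at 10.09, 9.14 and 6.72, Cxcr2 at 5.996, 5.38 and 4.50, and Ltf at 10.71, 10.38 and 12.18. The part of neutrophils in the levels of these 2 genes was not tested.

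The rest of the pathway was read from a list of 63 other genes, of which 57 had a probe set and 41 passed the floor. Alox12 and Ephx2 passed it through the macrophage array alone, so they had to be higher there. Ptgir and Cysltr1 passed it through the monocyte arrays alone, so they had to be lower in macrophages. Pla2g4c, Pla2g2f and Pla2g1b passed it through the Spic-positive array alone, and Ptgdr2 through the Spic-negative array alone. Each of these had to be highest on that array. Alox15 was under it on the Spic-negative array alone, so it had to be lowest there. All of these are in the counts and medians below. In all, 12 of 41 were at least 2-fold higher and 5 lower in macrophages than in Spic-negative monocytes, beside 19.6% and 11.3% of all genes, with a median of 0.28 beside 0.03. Against Spic-positive monocytes 14 were higher and 5 lower, beside 22.0% and 11.6%, with a median of 0.08 beside 0.10. Between the monocyte arrays 2 were higher and 2 lower, beside 3.49% and 3.06%, with a median of 0.22 beside -0.06.

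**Figure D3:**
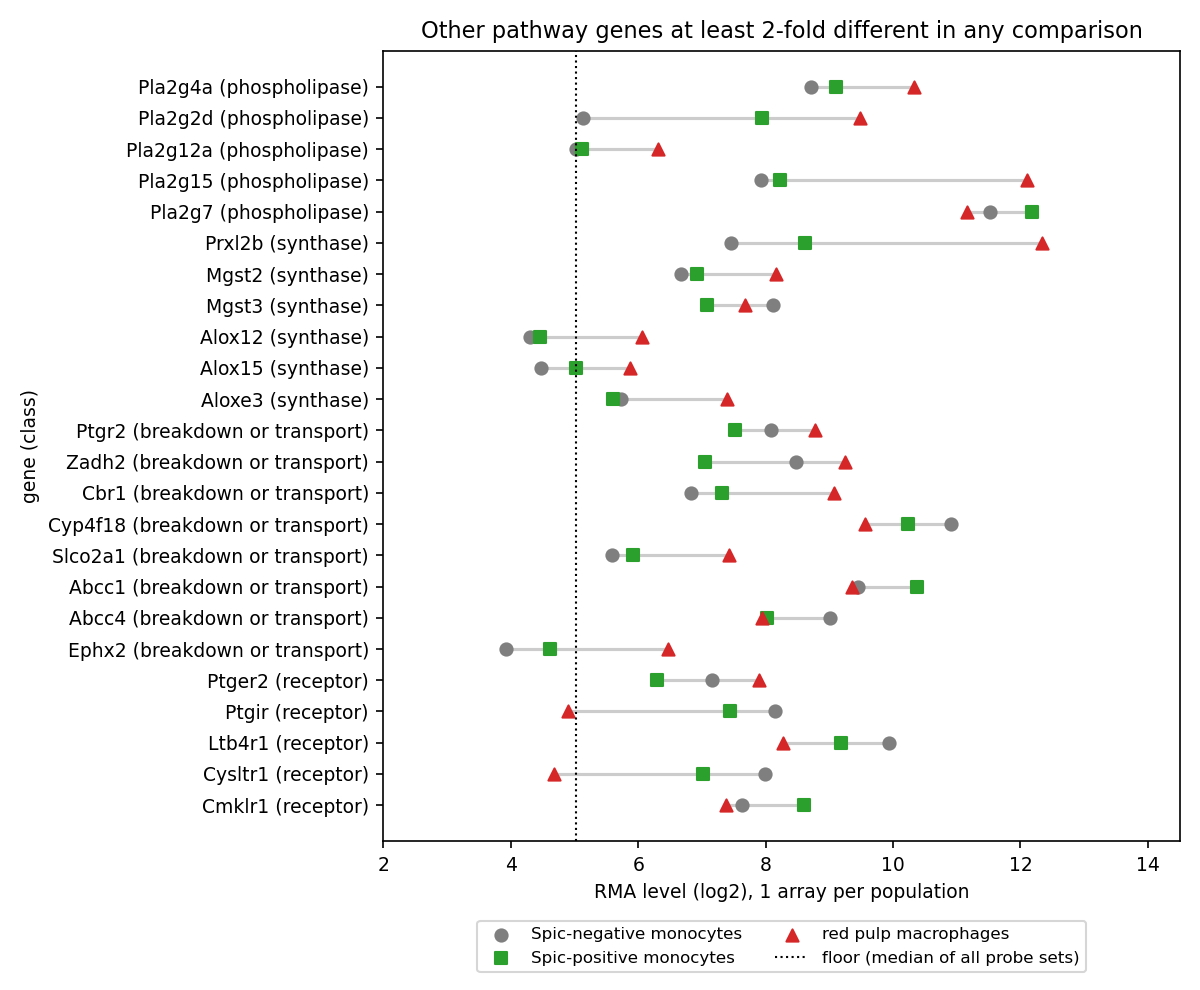
Level (log2) on the 3 arrays of the other pathway genes that differed by at least 2-fold in any comparison, grouped by class, with symbols and the dotted floor line at log2 5.02 as in the plot of enzyme levels. The triangles of the macrophage array lie far to the right for Pla2g2d, Pla2g15 and Prxl2b and to the left for Ptgir and Cysltr1.

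Phospholipases stand at the start of the pathway. Of 9 compared, macrophages had 4 at least 2-fold above Spic-negative monocytes and 0 below, beside 19.6% and 11.3% of all genes. Against Spic-positive monocytes 4 were higher and 1, Pla2g7, was lower, beside 22.0% and 11.6%, with a median of -0.20. That median is the value of Pla2g1b. Like Pla2g4c and Pla2g2f, Pla2g1b passed the floor on the Spic-positive array alone and so had to be lower in macrophages than there. Pla2g4a, the cytosolic phospholipase that supplies most arachidonic acid for these mediators, measured 8.71, 9.11 and 10.32, and macrophages were higher than Spic-negative monocytes by 1.61. Pla2g2d, a secreted phospholipase of lymphoid organs, measured 5.14, 7.95 and 9.48. Between the monocyte arrays it was the one phospholipase past 2-fold, higher by 2.81 in Spic-positive monocytes, and its second probe set above the floor gave 2.95. Pla2g15, a phospholipase of the lysosome, where phospholipids are turned over, measured 7.92, 8.23 and 12.09, and macrophages were higher by 4.17. Pla2g12a was higher by 1.28 from a value at the floor. Pla2g7, which breaks down platelet-activating factor and does not serve arachidonic acid release, measured 11.51, 12.18 and 11.16, a difference of -1.01 from Spic-positive monocytes. For Pla2g7, 2 of 8 alternatives brought this difference under 2-fold, to -0.89 at the least.

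Among 11 further synthases and lipoxygenases, 5 were at least 2-fold higher in macrophages than in Spic-negative monocytes and 0 were lower, beside 19.6% and 11.3% of all genes. Against Spic-positive monocytes 4 were higher and 0 lower, beside 22.0% and 11.6%. Prxl2b, a prostaglandin F synthase, measured 7.45, 8.61 and 12.34. Its order placed Spic-positive monocytes between the other arrays, with 1.16 over Spic-negative monocytes and 3.73 under macrophages. Mgst2, which can make leukotriene C, measured 6.67, 6.92 and 8.16. Mgst2 was higher in macrophages than in Spic-positive monocytes by 1.24, and 1 of 8 alternatives brought this under 2-fold, to 0.98. Its relative Mgst3 measured 8.12, 7.08 and 7.68, with Spic-positive monocytes lowest and a difference of -1.04 from Spic-negative monocytes, which 4 of 8 alternatives brought under 2-fold, down to -0.53. Alox12, the platelet-type lipoxygenase, measured 4.30, 4.46 and 6.06, Alox15 4.47, 5.02 and 5.87, and Aloxe3, a lipoxygenase best known from the epidermis, 5.73, 5.61 and 7.39. Alox12 and Alox15 were under the floor in Spic-negative monocytes, so their differences from them rest on background values. Lta4h, which makes leukotriene B, measured 10.07, 10.11 and 10.48 on the brightest of its 3 probe sets, under 2-fold in every comparison. With the median of its probe sets instead, both macrophage differences of Lta4h passed 2-fold. Ptges2, another prostaglandin E synthase, measured 6.64, 6.76 and 7.51, also under 2-fold.

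Of 11 genes of breakdown and transport, 3 were at least 2-fold higher and 2 lower in macrophages than in Spic-negative monocytes, beside 19.6% and 11.3% of all genes. Against Spic-positive monocytes 5 were higher and 1 lower, beside 22.0% and 11.6%. The prostaglandin uptake carrier Slco2a1, which delivers prostaglandins to Hpgd inside the cell, measured 5.59, 5.92 and 7.43, a difference of 1.84. Cbr1, a carbonyl reductase that acts on prostaglandins, measured 6.83, 7.31 and 9.07, and the epoxide hydrolase gene Ephx2 3.92, 4.62 and 6.46, with both monocyte values under the floor. Cyp4f18, a hydroxylase of leukotriene B, measured 10.91, 10.23 and 9.56, and 2 of 8 alternatives brought its difference from Spic-negative monocytes under 2-fold, to -0.81 at the least. The prostaglandin exporter gene Abcc4 measured 9.02, 8.03 and 7.94. Abcc1, the leukotriene C exporter, measured 9.45, 10.37 and 9.35, highest in Spic-positive monocytes. Its macrophage difference from Spic-positive monocytes was -1.02, which 1 of 8 alternatives brought under 2-fold, to -0.90. The prostaglandin reductase genes Zadh2 and Ptgr2 were lowest in Spic-positive monocytes, at 8.48, 7.04 and 9.25 for Zadh2 and 8.08, 7.52 and 8.78 for Ptgr2. One of the 4 probe sets of Ptgr2 above the floor went the other way between macrophages and Spic-positive monocytes, with -0.06 against 1.26 for the brightest, and 3 of 8 alternatives brought the difference under 2-fold, down to 0.62.

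Of 10 receptors, 0 were at least 2-fold higher and 3 lower in macrophages than in Spic-negative monocytes, beside 19.6% and 11.3% of all genes. The 10 include Cmklr1 and Fpr2 beside receptors for prostaglandins, thromboxane and leukotrienes. Against Spic-positive monocytes 1, Ptger2, was higher and 3, Ptgir, Cysltr1 and Cmklr1, were lower, beside 22.0% and 11.6%. Ptgir, the prostacyclin receptor, measured 8.15, 7.44 and 4.90, under the floor in macrophages, and differed by -3.25. Cysltr1, a receptor for the glutathione-bearing leukotrienes, measured 7.98, 7.01 and 4.67 and differed by -3.31, with -2.86 on its second probe set. Ltb4r1, a leukotriene B receptor that guides leukocytes, measured 9.94, 9.18 and 8.27, a difference of -1.67. Both Ptgir and Cysltr1 were above the floor on the monocyte arrays alone. Ptger4, a prostaglandin E receptor, measured 10.13, 10.33 and 10.56 and differed by less than 2-fold in every comparison. Ptger2, the other prostaglandin E receptor above the floor, measured 7.16, 6.29 and 7.90, and macrophages were higher than Spic-positive monocytes by 1.61. Tbxa2r, the thromboxane receptor, measured 6.45, 6.87 and 6.38, under 2-fold in every comparison. Cmklr1, a receptor for chemerin, measured 7.62, 8.60 and 7.38, highest in Spic-positive monocytes. Its macrophage difference from Spic-positive monocytes was -1.23, which 2 of 8 alternatives brought under 2-fold, to -0.85 at the least. Ptger1, Ptger3, Ptgfr, Cysltr2 and Oxgr1 were under the floor on all 3 arrays.

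The differences between the monocyte arrays in Pla2g2d, Prxl2b, Mgst3 and Zadh2 stand beside markers of other cells that also differed there. Of 5 measured B cell markers, 3 and 5 were above the floor on the Spic-negative and Spic-positive arrays. Their summed levels were 433 and 1774, and 290.4 and 1303 without Cd79b. Of 8 red pulp macrophage markers, 5 and 7 were above it, with summed levels of 2288 and 4854, and of 2267 and 4753 without Cd5l. Of 5 dendritic cell markers, 2 and 4 were above it, with summed levels of 516 and 1329, and of 458 and 371 without Ccr7, which measured 5.85 and 9.90. The part of these in the 4 differences was not tested.

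The genes with the pattern most like each member were found as those with the smallest Euclidean distance between the 3 levels, each gene centred on its own mean, for the 6 members whose levels spanned at least log2 1. Over 3 arrays, many genes can lie near a member by their number alone. For Ptgs2 they were Ifi213 at a distance of 0.017 and Col4a1 at 0.066, for Alox5ap Arid1b at 0.045 and Syne3 at 0.047. For Hpgds they were Rab34 at 0.020 and Eaf2 at 0.12, and for Tbxas1 Cpne8 at 0.040 and Cenpp at 0.050. Hpgd was nearest to Rhoj, at 0.0016, and Zfp703, at 0.022. Rhoj was under the floor on both monocyte arrays and only just above it in macrophages, at 5.05, unlike Hpgd. Cpne8 and Cenpp were also under the floor on both monocyte arrays, unlike Tbxas1. Ptgis, with the widest span, had no gene nearer than Apol11b at 0.21 and Ctla2b at 0.26. Like Ptgis, both were under the floor on the monocyte arrays, and they measured 8.77 (Apol11b) and 8.81 (Ctla2b) in macrophages.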

How the data were processed

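RNA of 3 sorted populations was measured on 1 array each. The deposited log2 values were made by the authors with RMA, per the submitters' processing notes (version not given in the sources used here). That the scale is log2 was taken from the values, which ran from 1.82 to 14.50. RMA scales the arrays to each other, so differences in total RNA per cell are not visible. The medians of the deposited values still differed a little, at 5.01, 5.08 and 4.96. Per the labels' protocols, cRNA was amplified over 2 cycles, which can shorten it. Of 45101 probe sets, 64 controls were left out, 34945 had 1 gene symbol, 932 several and 9160 none here. Symbols were updated through gene identifiers for 34741 with a table of GRCm38.p6. This left 18193 genes, each with its probe set of highest mean over the arrays. The floor and 2-fold are described above. The members and lists were chosen with earlier results of these data known. The text names all members, the pathway genes past 2-fold, others needed for the count of a class, the label and cell type markers, and the 2 nearest genes of each member that spans log2 1. No test was run, since each group had 1 array, and the number of arrays limits the precision. Scanner files were not used here. Alternatives changed the probe set, the scaling, the floor or the fold. Python 3.11.15, numpy 2.4.6, pandas 2.3.3, matplotlib 3.10.9, R 4.3.3 and limma 3.58.1 (cyclic loess) were used, and the scripts were tested on simulated data.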

Additional observations from a re-analysis of the deposited data

How the results depend on the processing

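The counts of members past 2-fold stayed within 1.5 times their values under all 10 alternatives. No member or pathway difference past 2-fold changed direction. Member differences were also set beside 2-fold under 8 alternatives. Changing the floor cannot move a difference, nor can changing the probe set where a gene has only 1. Many differences were therefore the same by construction. Of the 189 member differences, those that could not move included, 184 kept their side of 2-fold. The exceptions were Hpgd against Spic-negative monocytes without probe sets ending in _x_at or _s_at (0.78), Alox5 after quantile normalization again (-1.03 and -1.07 in macrophages against the Spic-negative and the Spic-positive array), and Ltc4s against Spic-positive monocytes after centring (1.04) or cyclic loess (1.07). Of 552 pathway differences under the same alternatives, 528 kept their side, and here too many could not move. These were differences of the pathway genes past 2-fold in any comparison, chosen after seeing the data. Pathway genes under 2-fold in every comparison were left out, though Ggt5, Lta4h and Pla2g6 passed 2-fold in some settings. Pathway genes past the fold numbered 18 at 1.5-fold and 1 at 4-fold between the monocyte arrays (4 at 2-fold), 7 at 4-fold in macrophages against Spic-negative monocytes (17 at 2-fold), and 29 at 1.5-fold and 5 at 4-fold against Spic-positive monocytes (19 at 2-fold), by the construction of the fold. Scaling moved the share of higher genes among all genes past 2-fold between the monocyte arrays from 53.3% to 42.4% after centring and 63.1% after cyclic loess, and the median of all genes in macrophages against Spic-positive monocytes from 0.10 to 0.23 after centring and -0.03 after quantile normalization. Levels under the floor are near background, which limits the differences of Hpgds and Ptgis.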
